A study of Homo sapiens with 6 samples.

Results

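Transcripts of apoptosis regulators and caspases were compared between PC9-BrM3 cells with silenced AKR1B10 and their controls. The set held 34 genes, chosen by name from the BCL2 family, the inhibitors of apoptosis, the apoptosome and its mitochondrial partners, the caspases and the death receptor complex, out of 58735 genes in the table. PC9-BrM3 is a brain-metastatic derivative of the human lung adenocarcinoma line PC9. Expression was measured by bulk RNA-seq in 3 libraries labelled AKR1B10 knockdown (BrM3-shAKR1B10) and 3 labelled WT (BrM3-shNC), which the study describes as cells with negative control shRNA. The shRNAs were delivered in the LV2 lentiviral vector, and all 6 libraries came from 1 cell line in routine culture, with no drug among the labels. The study's figure legends name a single shRNA against AKR1B10 for these cells, so an effect of that shRNA on other transcripts and an effect of lost AKR1B10 cannot be told apart. Levels are given in FPKM, fragments per kilobase of gene length scaled to the depth of the library. The length takes in all annotated exons of a gene, used or not, so levels compare only roughly between genes. Comparison between libraries rests on the scaling to depth.

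Apoptosis through mitochondria is set by the balance within the BCL2 family. Survival proteins hold the pore-forming effectors in check, BH3-only proteins release or activate the effectors, and open mitochondria let out cytochrome c, which assembles with APAF1 and caspase-9 into the apoptosome. Inhibitors of apoptosis restrain caspases or their upstream complexes, and a separate route runs from death receptors through FADD to caspase-8. Much of this control acts on proteins, by cleavage, binding, phosphorylation and turnover, and transcript levels do not show it.

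AKR1B10 was measured at 108, 107 and 110 FPKM in the 3 BrM3-shAKR1B10 libraries and at 799, 775 and 772 FPKM in the 3 BrM3-shNC libraries, or 13.9% of the control mean, in the direction the labels give. Depth ran from 16964504 to 18709028 reads assigned to genes per library. All 6 epithelial markers examined were at or above 1 FPKM on average. The lung adenocarcinoma markers NKX2-1, NAPSA, SFTPB and SLC34A2 were all below it, with a summed level of at most 0.927 FPKM in any library. Of the markers of other cell types, 1 of 5 fibroblast, 0 of 5 leukocyte and 1 of 3 endothelial genes reached 1 FPKM. Their summed levels ran from 1.20 to 1.35 FPKM in BrM3-shAKR1B10 and from 2.03 to 2.05 FPKM in BrM3-shNC for the fibroblast list (COL1A2, LUM and DCN at 0 in every library), from 0.285 to 0.362 and from 0.497 to 0.566 FPKM for the leukocyte list (LYZ at 0), and from 2.10 to 2.37 and from 1.52 to 1.79 FPKM for the endothelial list. The part of these markers in the results was not tested.

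Of the 34 members, 30 had a mean of at least 1 FPKM and entered the test, which was limma on log2(FPKM + 0.1) over all 13150 genes that passed this filter, two-sided, with Benjamini-Hochberg adjustment. A gene was said to fall or rise at an adjusted p under 0.05 and a log2 fold change beyond 0.5 in size. By this criterion 1 member fell and 1 rose, and 28 did neither. Among all genes tested, 980 (7.45%) fell and 766 (5.83%) rose, so 1 of 30 in each direction was under the background share. The member that fell was MCL1 and the member that rose was BCL2L1, both survival proteins of the BCL2 family, and both were among the most abundant members. The remaining 28 members, 93.3% of those tested, lay within 0.5 on the log2 scale of no change, against 83.3% of all genes tested. The median log2 fold change was 0.03 over the tested members and -0.01 over all genes tested, and the median absolute log2 fold change was 0.15 against 0.20. BCL2, BCL2A1, HRK and DIABLO were below the filter. The libraries are bulk RNA, so a fall in every cell and a loss of some of the cells that express a gene cannot be told apart. Nothing in the labels says that the 3 libraries of a group came from separate cultures, so p-values measure only the spread between these libraries.

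**Figure D1:**
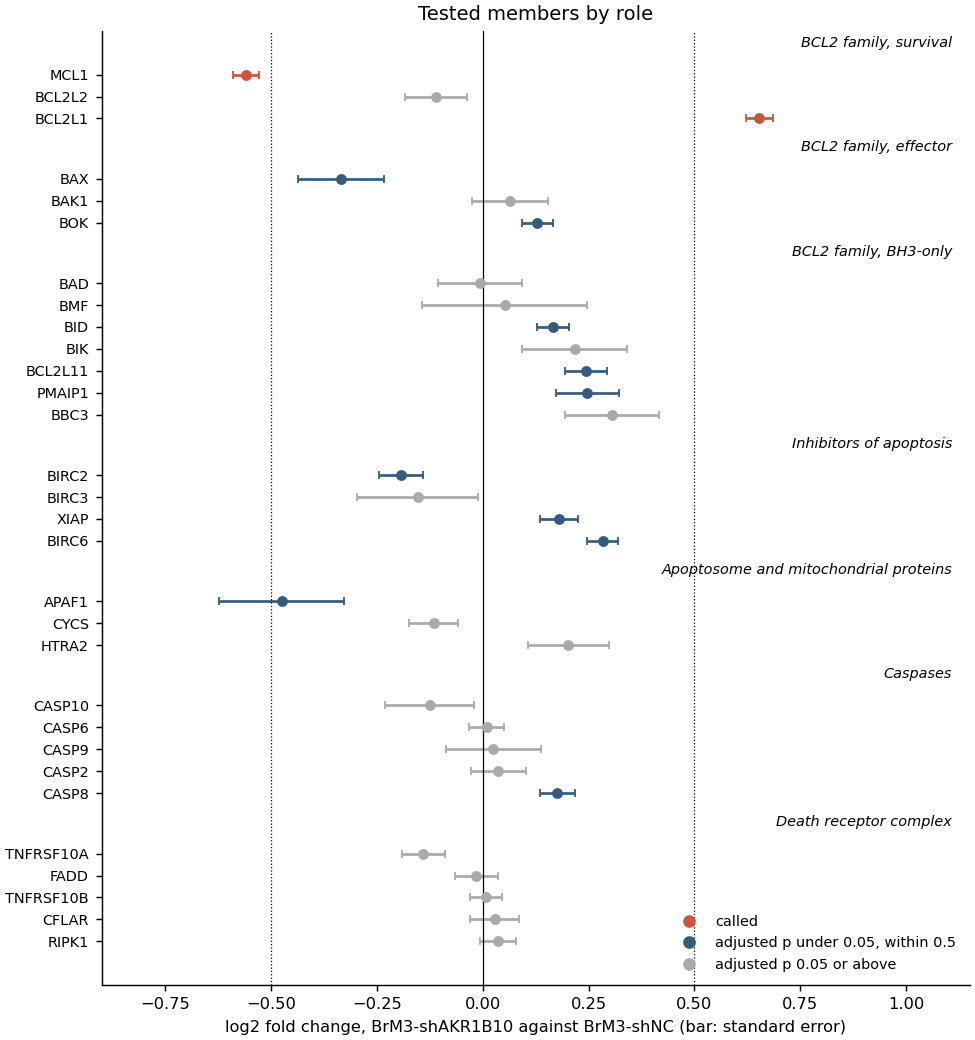
Log2 fold change of BrM3-shAKR1B10 against BrM3-shNC (x axis) for the 30 tested members, grouped by role, with the standard error from limma as bars and the thresholds of 0.5 as dotted lines. MCL1 lies beyond the lower threshold and BCL2L1 beyond the upper one, and the other 28 members lie between them.

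By the adjusted p alone, without the fold threshold, 4 members were lower (MCL1, BAX, BIRC2 and APAF1) and 8 were higher (BCL2L1, BOK, BID, PMAIP1, BCL2L11, XIAP, BIRC6 and CASP8), while 18 did not pass. The same criterion passed 23.1% of all genes tested in the lower direction and 19.4% in the higher direction, so 4 of 30 members was under the background share and 8 of 30 somewhat over it. When each of the 6 libraries was left out in turn, 6 of these 12 members passed every time, namely MCL1, BCL2L1, BID, BCL2L11, BIRC6 and CASP8. The other 6, BOK, BAX, PMAIP1, BIRC2, XIAP and APAF1, missed the threshold without at least 1 library. In 5 members every BrM3-shAKR1B10 library was below every BrM3-shNC library, and in 9 members every one was above. Across all genes tested the groups were apart in this way in 29.2% in the lower direction and 25.5% in the higher direction, so 5 of 30 was under the background share and 9 of 30 near it.

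**Figure D2:**
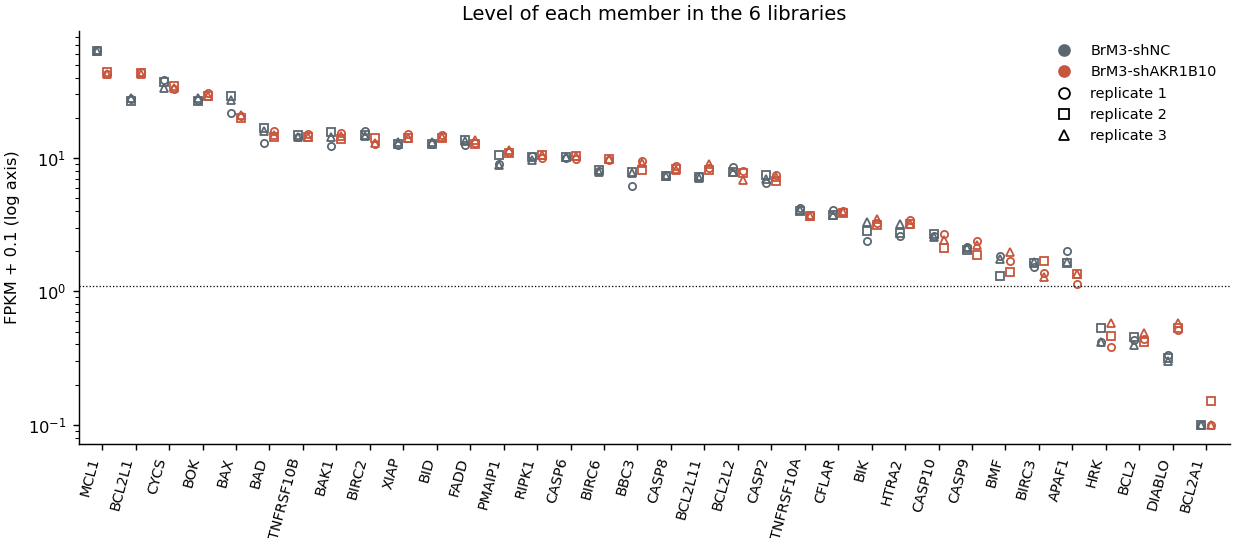
FPKM + 0.1 (log axis) of the 34 members in each of the 6 libraries, ordered by mean level, with BrM3-shNC in grey and BrM3-shAKR1B10 in red and a dotted line at the filter of 1 FPKM. MCL1 and BCL2L1 stand at the left with groups that do not overlap, and HRK, BCL2, DIABLO (the entry with reads) and BCL2A1 lie under the filter.

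Among the 5 survival members, the most abundant transcripts in BrM3-shNC cells were MCL1 and BCL2L1. MCL1 (ENSG00000143384, chromosome 1 from 150574551 to 150579738, minus strand, GRCh38) encodes a short-lived protein that holds back BAK and BAX. It was measured at 42.7, 44.1 and 42.2 FPKM in BrM3-shAKR1B10 and at 64.3, 62.9 and 63.1 FPKM in BrM3-shNC. Every silenced library lay below every control library, and the spread within a group was small beside the gap. MCL1 fell from 63.4 ± 0.789 to 43.0 ± 0.969 FPKM (SD, n = 3 each), to 67.8% of the control, with a log2 fold change of -0.56 (SE 0.0304) and an adjusted p of 3.93e-05 by limma. It rested on 3275 to 3480 reads per silenced library and 4649 to 5161 per control library. The change is close to the threshold of 0.5, and over the 17 alternative settings the log2 fold change of MCL1 ran from -0.58 to -0.51.

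BCL2L1 (ENSG00000171552, chromosome 20 from 31664452 to 31723989, minus strand), whose main product is the survival protein BCL-XL, moved the other way. It was measured at 43.7, 43.5 and 42.5 FPKM in BrM3-shAKR1B10 and at 27.6, 26.7 and 28.1 FPKM in BrM3-shNC, so the lowest silenced library was well above the highest control library. BCL2L1 rose from 27.5 ± 0.713 to 43.2 ± 0.677 FPKM (SD, n = 3 each), a fold of 1.58, with a log2 fold change of 0.65 (SE 0.0329) and an adjusted p of 2.97e-05 by limma. Its log2 fold change ran from 0.63 to 0.71 over the alternative settings. BCL2L1 also has a short splice form with the opposite effect on survival, and values per gene do not separate the forms. The annotated exons of BCL2L1 share 43.0% of their bases with ABALON, an antisense gene on the opposite strand. Whether counting used the strand is not given in the sources used here. Reads in shared bases can be lost or split in counting, for BCL2L1 and ABALON alike. ABALON itself was at 1.19 ± 0.0913 FPKM in the silenced and 1.10 ± 0.257 FPKM in the control libraries (n = 3 each), with an adjusted p of 0.662 by limma, and held 27 to 47 reads per library against at least 1496 reads for BCL2L1.

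The sequences before the start sites of BCL2L1 and of BIRC6, the higher member with the next lowest adjusted p, are shown because these members differed most clearly from the control among those with a RefSeq promoter here. Each is the stretch of 250 bases before the RefSeq start, 5′ to 3′ on the gene's strand (GRCh38.p14). BCL2L1 is at chr20:31723964-31724213 on the minus strand and BIRC6 at chr2:32356773-32357022 on the plus strand. Capitals mark matches, on either strand, to any of the GC box GGGCGG, the CCAAT box CCAAT, the AP-1 site TGANTCA and the STAT site TTCNNNGAA.

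BCL2L1: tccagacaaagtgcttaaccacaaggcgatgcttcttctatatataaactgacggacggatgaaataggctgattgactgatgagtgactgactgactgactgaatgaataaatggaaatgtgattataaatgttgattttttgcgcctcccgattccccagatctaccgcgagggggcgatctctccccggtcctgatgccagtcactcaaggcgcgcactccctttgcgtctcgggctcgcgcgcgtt

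BIRC6: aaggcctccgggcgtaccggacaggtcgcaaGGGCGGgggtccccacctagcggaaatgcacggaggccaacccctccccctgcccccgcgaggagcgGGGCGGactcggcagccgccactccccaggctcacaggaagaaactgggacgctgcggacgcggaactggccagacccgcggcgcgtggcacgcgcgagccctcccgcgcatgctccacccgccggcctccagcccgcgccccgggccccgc

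The BCL2L1 stretch held none of the 4 motifs. The BIRC6 stretch held 2 GC boxes, which did not overlap. Of the 34 members, 28 were matched to a RefSeq promoter. A GC box lay in 20 of these 28 (71.4%), against 42.3% of 27305 promoters of the same length. A CCAAT box lay in 11 (39.3%, against 33.0%), an AP-1 site in 1 (3.57%, against 6.60%) and a STAT site in 2 (7.14%, against 6.78%). The 27305 promoters were not matched to the members by expression or GC content, and its part in these shares was not tested. A match is a run of letters and not a measured binding site.

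Of the other survival members, BCL2L2, which encodes BCL-w, was at 7.41 ± 0.629 FPKM in the silenced cells against 8.0 ± 0.409 FPKM in the controls (adjusted p = 0.264 by limma), with overlapping groups and 24.3% of its exon bases shared with other genes. BCL2, the founding member, was at 0.35 ± 0.0348 and 0.328 ± 0.0294 FPKM, on 64 to 81 reads per library, and was not tested. BCL2A1 had 1 read in 1 library of BrM3-shAKR1B10 and none in the other 5, fewer than the 3 reads taken as the smallest level the depth can show.

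The summed FPKM of the 5 survival members was 94.0 ± 1.98 in BrM3-shAKR1B10 and 99.2 ± 1.49 in BrM3-shNC (n = 3 each), a ratio of 0.948, and its groups, from 91.8 to 95.6 and from 97.7 to 100.7 FPKM, did not overlap (exact permutation p = 0.1, the smallest possible). The makeup of that sum shifted more than its size. MCL1 made up 63.9% ± 0.397 of the sum in BrM3-shNC and 45.7% ± 0.570 in BrM3-shAKR1B10, while the share of BCL2L1 went from 27.7% ± 0.569 to 46.0% ± 0.414 and that of BCL2L2 was 8.06% and 7.88%. The ratio of BCL2L1 to MCL1 FPKM within a library was 1.02, 0.987 and 1.0 in BrM3-shAKR1B10 and 0.428, 0.424 and 0.446 in BrM3-shNC. Both genes were thus at like FPKM in each silenced library, and MCL1 had the higher FPKM in each control library. BCL2L1 shares 43.0% of its exon bases with ABALON, and MCL1 shares 0.046% with another gene. Reads in shared bases can be lost or split in counting, so the size of the ratio and of the shares is uncertain. This within-library ratio does not depend on the scaling between libraries. The pair is the member that fell and the member that rose, each with groups apart. Their ratio therefore had to separate the groups, and the ratio and shares restate those results. The exact two-sided permutation test of the ratio gave p = 0.1, the smallest that 3 against 3 libraries allow. That outcome was fixed in advance and adds no separate support.

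**Figure D3:**
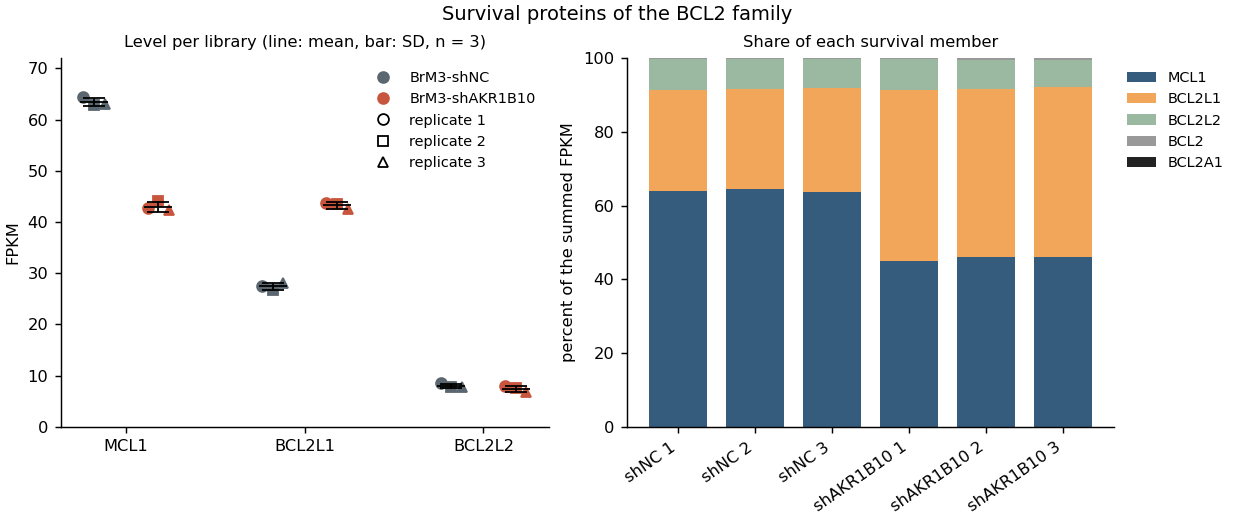
Left, FPKM of MCL1, BCL2L1 and BCL2L2 in each library, with the mean (line) and SD (bar) of 3 libraries per group. Right, the percent of the summed FPKM of the 5 survival members taken by each in the 6 libraries: BCL2L1 averages 27.7% in BrM3-shNC and 46.0% in BrM3-shAKR1B10, and MCL1 averages 63.9% and 45.7%.

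Of the 3 effectors, which form pores in the outer mitochondrial membrane, none met both criteria, by which 7.45% of all genes tested fell and 5.83% rose, so a count of 0 among 3 is no departure from the background. BOK, an effector that survival proteins bind poorly, was the most abundant, at 30.8, 29.2 and 29.3 FPKM in BrM3-shAKR1B10 and 27.0, 26.7 and 27.9 FPKM in BrM3-shNC. Its groups did not overlap, and its log2 fold change was 0.13 (SE 0.0363, adjusted p = 0.0281 by limma). BAX, an effector that moves from the cytosol to mitochondria, was measured at 20.7, 19.7 and 20.9 FPKM in BrM3-shAKR1B10 and at 21.8, 29.1 and 27.0 FPKM in BrM3-shNC. All 3 silenced libraries were below all 3 control libraries, but the control libraries spread over a wider range than the gap between the groups. The log2 fold change of BAX was -0.33 (SE 0.102, adjusted p = 0.0373 by limma). Without BrM3-shNC replicate 1 it was -0.46, with an adjusted p of 0.00144, while leaving out any of the other 5 libraries brought the adjusted p above 0.05, to 0.103 at most. BAK1, the effector that resides on mitochondria, was at 14.5 ± 0.792 and 13.9 ± 1.63 FPKM (adjusted p = 0.596). Its log2 fold change was 0.06, and -0.03 without BrM3-shNC replicate 1. BAX made up 31.6% ± 0.682 of the summed effector FPKM in BrM3-shAKR1B10 and 38.6% ± 2.60 in BrM3-shNC (exact permutation p = 0.1, the smallest possible, n = 3 each). The summed effector FPKM was 64.7 ± 2.08 and 67.1 ± 5.37, with overlapping groups (exact permutation p = 0.5).

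At the 30 tested members, 2 of the silenced libraries leaned to one side. BrM3-shAKR1B10 replicate 1 was the highest of its group at 16 members and replicate 2 the lowest at 15, and across the members their deviations from the group mean had Spearman correlations with GC content of 0.53 and -0.54. BrM3-shNC replicate 1 was the lowest of its group at 12 members, among them BAX, BAK1, BAD, BBC3 and BIK, and the highest at 12, where an even split would give 10. Its correlation across the members was -0.40, and that of BrM3-shNC replicate 3 was 0.59. Over 13146 genes with a known GC content, the deviation of BrM3-shNC replicate 1 had a Spearman correlation with GC content of -0.40 across genes, against 0.16 and 0.31 in the other 2 control libraries, which share the same mean, and -0.026, -0.19 and 0.22 in the 3 silenced libraries. The part of GC content in the members' values was not tested. The 5 members named above are given with and without BrM3-shNC replicate 1.

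Of the 8 BH3-only members, 7 were tested and none met both criteria, while 3 passed the adjusted p alone, all higher, against 19.4% of all genes tested in that direction and 23.1% in the lower one. BAD, which binds BCL-XL and is controlled by phosphorylation, was the most abundant, at 15.8, 14.3 and 14.8 FPKM in BrM3-shAKR1B10 and 12.9, 16.7 and 15.8 FPKM in BrM3-shNC. Its silenced libraries lay inside the range of the control libraries, and the adjusted p was 0.965 by limma (0.149, with a log2 fold change of -0.12, without BrM3-shNC replicate 1). BAD shares 23.7% of its exon bases with GPR137 on the opposite strand, itself at 14.3 FPKM on average. BCL2L11, which encodes BIM and binds all survival proteins, was at 8.26, 8.01 and 8.92 FPKM against 7.18, 7.05 and 6.97 FPKM. All silenced libraries were above the controls, with a log2 fold change of 0.24 (SE 0.0503, adjusted p = 0.00875). BID, which caspase-8 cleaves to link the death receptor route to mitochondria, was at 14.3 ± 0.380 against 12.7 ± 0.302 FPKM (log2 fold change 0.17, adjusted p = 0.0134). PMAIP1, which encodes NOXA and binds MCL1, was at 11.1 ± 0.276 against 9.36 ± 0.972 FPKM (log2 fold change 0.25, adjusted p = 0.0353), and passed in only 1 of the 6 fits with a library left out.

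BBC3, which encodes PUMA, a p53-inducible BH3-only protein, was measured at 9.47, 7.98 and 9.03 FPKM in BrM3-shAKR1B10 and at 6.05, 7.81 and 7.58 FPKM in BrM3-shNC. The groups did not overlap, although the lowest silenced library was just above the highest control library, and the log2 fold change of 0.31 had an adjusted p of 0.0653 by limma. Without BrM3-shNC replicate 1 it was 0.19, with an adjusted p of 0.112. BBC3 passed the adjusted p with voom on the recovered reads (0.0124), with protein-coding genes only (0.026) and at a mean FPKM of at least 5 (0.0459). BIK was at 3.18 ± 0.178 against 2.75 ± 0.466 FPKM (log2 fold change 0.22, adjusted p = 0.207), and its log2 fold change was 0.097 without BrM3-shNC replicate 1 and 0.33 without BrM3-shNC replicate 3, neither past the adjusted p. BMF was at 1.59 ± 0.291 against 1.53 ± 0.297 FPKM (adjusted p = 0.852). HRK, at 0.374 ± 0.0986 and 0.356 ± 0.0649 FPKM, was not tested. The summed FPKM of the 8 BH3-only members was 62.7 ± 2.55 in BrM3-shAKR1B10 and 56.0 ± 3.67 in BrM3-shNC, and its groups, from 59.8 to 64.2 and from 51.9 to 58.9 FPKM, did not overlap (exact permutation p = 0.1, the smallest possible, n = 3 each). The sum of 51.9 FPKM was that of BrM3-shNC replicate 1. BrM3-shNC replicates 2 and 3 were at 58.9 and 57.3 FPKM, just under the lowest silenced sum.

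**Figure D4:**
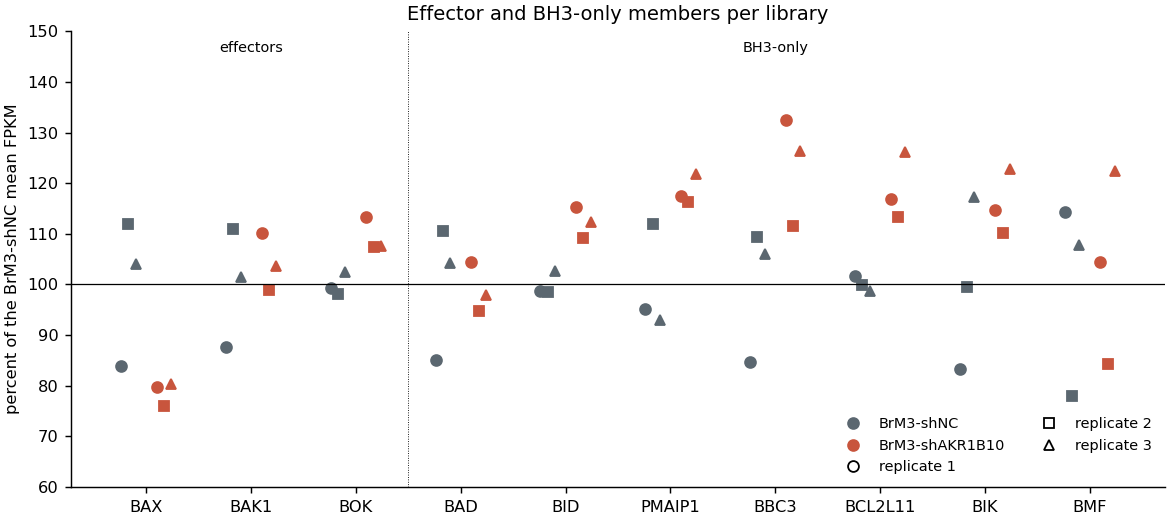
FPKM of the 10 tested effector and BH3-only members in each library, as a percent of the BrM3-shNC mean (y axis, which does not start at 0), with grey for BrM3-shNC, red for BrM3-shAKR1B10 and 1 symbol per replicate number. BAX is the member with every silenced library below the controls, BOK, BID, PMAIP1, BBC3 and BCL2L11 have every silenced library above them, and the grey circle of BrM3-shNC replicate 1 is the lowest control at BAX, BAK1, BAD, BBC3 and BIK.

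Of the 4 inhibitors of apoptosis, none met both criteria, with 1 lower and 2 higher by the adjusted p alone, against 23.1% and 19.4% of all genes tested. BIRC6, a very large ubiquitin ligase that marks caspases and their activators for turnover, was at 9.5, 9.73 and 9.72 FPKM in BrM3-shAKR1B10 and at 7.95, 8.01 and 7.78 FPKM in BrM3-shNC. The groups were well apart, and among the members within 0.5 of no change BIRC6 had the lowest adjusted p, 0.00118 by limma, with a log2 fold change of 0.28 (SE 0.0360). XIAP, which binds and blocks active caspases directly, was at 14.4 ± 0.606 against 12.7 ± 0.366 FPKM (log2 fold change 0.18, adjusted p = 0.0174). BIRC2, which encodes the ubiquitin ligase cIAP1 of the tumor necrosis factor receptor complex, was the most abundant of the 4 in BrM3-shNC, while XIAP was in BrM3-shAKR1B10. BIRC2 was at 12.6, 13.9 and 12.9 FPKM in BrM3-shAKR1B10 and at 15.7, 14.7 and 14.6 FPKM in BrM3-shNC, every silenced library below the controls, with a log2 fold change of -0.19 (adjusted p = 0.0247). Its neighbour on chromosome 11, BIRC3, which encodes cIAP2, was at 1.35 ± 0.213 against 1.5 ± 0.0773 FPKM (adjusted p = 0.426), and its groups overlapped. The summed FPKM of the 4 inhibitors was 38.5 ± 0.739 in BrM3-shAKR1B10 and 37.1 ± 0.274 in BrM3-shNC, and its groups, from 37.8 to 39.3 and from 36.9 to 37.4 FPKM, did not overlap (exact permutation p = 0.1, the smallest possible, n = 3 each).

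In the apoptosome group, CYCS, which encodes cytochrome c, was the most abundant, at 32.6, 34.6 and 33.1 FPKM in BrM3-shAKR1B10 and at 38.6, 37.1 and 33.3 FPKM in BrM3-shNC. The groups overlapped, and the adjusted p was 0.157 by limma (from 0.0247 to 0.657 over the alternative settings). APAF1, the scaffold of the apoptosome, was measured at 1.03, 1.24 and 1.24 FPKM against 1.92, 1.52 and 1.57 FPKM. Every silenced library was below every control library, on 144 to 177 reads against 203 to 279 reads. APAF1 was at 70.1% of the control with a log2 fold change of -0.47 (SE 0.147, adjusted p = 0.0395), just inside the fold threshold. It met both criteria with a pseudocount of 0.01 (-0.51), with quantile scaling (-0.53) and with voom on the recovered reads (-0.51), and missed the adjusted p whenever any 1 of the 6 libraries was left out, with values up to 0.111. HTRA2, a mitochondrial protease that antagonises inhibitors of apoptosis once released, was at 3.17 ± 0.148 against 2.75 ± 0.331 FPKM (adjusted p = 0.135), with 36.9% of its exon bases shared with other genes. The adjusted p of HTRA2 by limma ran from 0.0361 to 0.317 over the alternative settings. The summed FPKM of the 4 members of this group was 38.2 ± 0.991 in BrM3-shAKR1B10 and 41.0 ± 2.53 in BrM3-shNC, with overlapping groups (exact permutation p = 0.2, n = 3 each).

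DIABLO, which encodes SMAC, another mitochondrial antagonist of inhibitors of apoptosis, has 2 entries in the annotation. The entry with reads (ENSG00000184047, chromosome 12) was at 0.418, 0.433 and 0.474 FPKM in BrM3-shAKR1B10 and at 0.233, 0.218 and 0.202 FPKM in BrM3-shNC. The silenced libraries were above the controls, at 2.03-fold, but on only 50 to 57 reads against 25 to 29. It was below the filter, and without a filter its log2 fold change of 0.77 had an adjusted p of 0.0844 by limma. The second entry (ENSG00000284934) had at most 1 read per library. The entry with reads shares 30.4% of its exon bases with other genes, among them 2006 bases with the second entry and 1139 bases with AC048338.1. Reads in shared bases can be lost or split in counting, so the low level of DIABLO is uncertain.

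Of the 5 caspases among the members, none met both criteria (7.45% of all genes tested fell and 5.83% rose) and 1 passed the adjusted p alone, in the higher direction, near the background share of 19.4%. CASP6, an executioner caspase that cleaves lamins, was the most abundant, at 9.64, 10.2 and 10.3 FPKM in BrM3-shAKR1B10 and at 9.82, 9.98 and 10.2 FPKM in BrM3-shNC. Its groups lay over each other (adjusted p = 0.879 by limma). CASP8, the initiator of the death receptor route, was at 8.57, 8.12 and 8.06 FPKM against 7.31, 7.26 and 7.29 FPKM. Its silenced libraries were all above the controls, with a log2 fold change of 0.18 (SE 0.0408, adjusted p = 0.0137). CASP9, the initiator in the apoptosome, was at 2.06 ± 0.270 against 2.01 ± 0.0501 FPKM (adjusted p = 0.876). CASP2, an initiator outside the apoptosome, was at 7.03 ± 0.393 against 6.85 ± 0.435 FPKM, and CASP10, a paralog of CASP8, was at 2.32 ± 0.302 against 2.52 ± 0.0739 FPKM, with adjusted p-values of 0.682 and 0.375. The summed FPKM of the 5 caspases was 29.7 ± 0.914 in BrM3-shAKR1B10 and 28.7 ± 0.485 in BrM3-shNC, with overlapping groups.

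None of the 5 members of the death receptor complex passed the adjusted p, which 23.1% of all genes tested passed in the lower and 19.4% in the higher direction. TNFRSF10B, which encodes the TRAIL receptor DR5, was at 14.9, 14.4 and 14.2 FPKM in BrM3-shAKR1B10 and at 14.1, 14.7 and 14.4 FPKM in BrM3-shNC, with groups that lay over each other (adjusted p = 0.884 by limma). TNFRSF10A, the related receptor DR4, was at 3.61 ± 0.0163 against 3.99 ± 0.119 FPKM. Its groups did not overlap, and its log2 fold change of -0.14 had an adjusted p of 0.0621. Over the alternative settings the adjusted p of TNFRSF10A by limma ran from 0.0351 to 0.228. FADD, the adaptor that recruits caspase-8, was at 13.0 ± 0.555 against 13.2 ± 0.613 FPKM, and shares 54.9% of its exon bases with an antisense gene listed at 0 in every library. RIPK1, a kinase of the same complexes, was at 10.2 ± 0.268 against 10.0 ± 0.328 FPKM. CFLAR, the catalytically inactive relative of caspase-8 that restrains it, was at 3.83 ± 0.0456 against 3.75 ± 0.207 FPKM. The summed FPKM of the complex was 45.2 ± 0.475 and 45.3 ± 0.602.

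Other genes of the pathway were taken from a list of 66 apoptosis genes outside the members, of which 65 were found and 52 tested. By both criteria 6 of the 52 fell and 1 rose, against 7.45% and 5.83% of all genes tested, and the median log2 fold change was -0.09. BIRC5, a member of the inhibitor of apoptosis family known mainly for its part in chromosome segregation, fell from 41.6 ± 0.786 to 19.0 ± 1.02 FPKM (SD, n = 3 each), with a log2 fold change of -1.13 (SE 0.0450, adjusted p = 1.66e-05 by limma). TNFRSF10D, a decoy receptor for TRAIL, fell from 7.18 ± 0.679 to 3.95 ± 0.228 FPKM (log2 fold change -0.84). The lamins LMNB1 and LMNB2, structural proteins of the nucleus that caspases cleave, fell by 0.74 and 0.69 on the log2 scale. BCL2L12 fell from 37.1 ± 3.11 to 24.1 ± 1.09 FPKM. The gene that rose was DFFB, the nuclease that cuts DNA in apoptosis, from 1.57 ± 0.151 to 2.26 ± 0.15 FPKM. Its log2 fold change of 0.50 (adjusted p = 0.00954) sits at the threshold, and it dropped under it in 3 of the 6 fits with a library left out.

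A list of 25 genes known as p53 targets, of which 23 were tested, had 1 that fell and 4 that rose, against 7.45% and 5.83% of all genes tested, and a median log2 fold change of 0.10. TP53I3, an oxidoreductase, rose from 2.62 ± 0.13 to 7.14 ± 0.185 FPKM, with a log2 fold change of 1.41 (SE 0.0558, adjusted p = 1.61e-05 by limma). BTG2, an antiproliferative regulator of mRNA decay, rose from 8.34 ± 0.493 to 13.7 ± 0.113 FPKM. CDKN1A, which encodes the cyclin-dependent kinase inhibitor p21, rose from 8.42 ± 0.390 to 13.6 ± 0.404 FPKM. SESN1, a stress-inducible regulator of growth signalling, rose from 3.28 ± 0.365 to 5.01 ± 0.154 FPKM. The gene that fell was POLH, a translesion DNA polymerase, with a log2 fold change of -0.51 at the threshold, which 2 of the 6 fits with a library left out put inside it. The members BBC3, PMAIP1, BAX and TNFRSF10B, which p53 is also known to induce, had log2 fold changes of 0.31, 0.25, -0.33 and 0.01, none beyond 0.5.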

How the data were processed

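RNA was sequenced from 3 BrM3-shAKR1B10 and 3 BrM3-shNC libraries, grouped by title and genotype in the labels. The authors aligned filtered paired-end reads with HISAT2 2.0.5, counted reads per gene with featureCounts 1.5.0-p3 and deposited FPKM per gene. Strand use and handling of shared reads are not given in the sources used here. Positions of all 58735 genes matched GENCODE 29 (GRCh38). Reads were recovered from FPKM and gene length, whole (within 0.01 read) for 100% of values. The depth allows a smallest level of 3 reads, 0.163 to 0.177 FPKM for a gene of 1 kilobase, which covers counting error only.

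Genes with a mean of at least 1 FPKM were tested on log2(FPKM + 0.1) in limma 3.58.1 (R 4.3.3; lmFit, eBayes with trend) with Benjamini-Hochberg adjustment, in place of the count model of the study. Thresholds were an adjusted p of 0.05 and a log2 fold change of 0.5. Fold changes of low genes are understated on this scale. The script was tested on simulated data. The members and lists were chosen with earlier results of these data known. All members are named by role, with values per library for those that fell or rose and the most abundant of each role; further values per library (BAX, BBC3, BCL2L11, BIRC6, APAF1, DIABLO, CASP8) were chosen after they were seen. Of the other lists, up to 5 genes per direction with the largest change are named. Deviations of same-numbered libraries had correlations of -0.0155, 0.00388 and 0.00383, so the numbers do not pair them. Motifs were searched in RefSeq promoters with Python 3.11.15. The alternatives were 3 scalings or models of the values, pseudocounts, filters, an untrended eBayes, a replicate block, protein-coding genes only, a fold threshold of 1 and each library left out.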

Additional observations from a re-analysis of the deposited data

How the results depend on the processing

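Over the 17 alternatives, MCL1 met both criteria as a lower gene and BCL2L1 as a higher gene in each except the log2 fold change threshold of 1, where 0 members were lower and 0 higher. A pseudocount of 0.01, quantile scaling and voom on recovered reads each gave 2 lower members, since APAF1 was added. With each of the 6 libraries left out, both counts were 1 in each fit. All genes that fell numbered 980, against 532 at a mean FPKM of at least 5 and 205 at the fold threshold of 1. Genes that rose numbered 766, against 497 with a pseudocount of 1, 290 at the filter of 5 and 168 at the fold threshold of 1. With TPM scaling 852 genes fell and 878 rose, so the larger count changed direction there. Both filters and thresholds leave fewer genes by construction.

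Members past the adjusted p alone were 4 lower and 8 higher. The lower count was 1 without a filter and 2 with quantile scaling, and ran from 1 to 3 with a library left out. The higher count ran from 5 to 8 with a library left out and reached 9 at a mean FPKM of at least 5, with voom and with protein-coding genes only. Replicate numbers did not pair the libraries. With the replicate block, both criteria gave 1 lower and 1 higher member, the adjusted p alone 1 lower and 5 higher, and all genes 967 and 719. The causes were not tested.

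Directions reversed at members near 0 on the log2 scale. With TPM scaling BAD was at 0.030 and FADD at 0.022. With quantile scaling BAD was at 0.035, FADD at 0.041 and CASP9 at -0.0042. With a library left out, log2 fold changes ran from -0.027 to 0.14 for BAK1, from -0.12 to 0.070 for BAD, from -0.11 to 0.18 for BMF, from -0.0091 to 0.038 for CASP6, from -0.0061 to 0.083 for CASP2, from -0.055 to 0.13 for CASP9, from -0.014 to 0.024 for TNFRSF10B and from -0.053 to 0.011 for FADD. DFFB and POLH lay at the fold threshold, and the list counts of 1 that rest on them were between 0 and 2. The 3 libraries per group limit the precision, and BCL2A1 was at or under the limit of 3 reads.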
